A study of Mus musculus with 2 samples.

Results

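The genes described are B2m, H2-D1 and H2-K1 of the major histocompatibility complex (MHC) class I pathway and Ifitm2, Ifitm3 and Bst2 of the interferon-responsive membrane proteins. They are 6 of 16301 genes detected in 3 or more kept cells over the series, and both files list all 6. These genes were chosen from values measured in the same libraries, so their tail and brain levels are given as a description, and nothing rests on them as a test. The single-cell libraries were made from GFP+ cells of Sox1-GFP mice, in which GFP reports Sox1, a transcription factor of the neuroepithelium. One group is Sox1-GFP+ cells of the tail of mice in the first days after birth, and the other is Sox1-GFP+ cells of the brain of adult mice some weeks old, with 1 library in each group. Per the study's methods, transgenic mice were bred with wild-type mice of CD1 background or of mixed CD1 and C3H background, and the number of animals behind each library was not given in the sources used here. Tissue, age, animals and library differed together between the groups and cannot be told apart. With 1 library per group there was no test, and every interval below covers counting error only.

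MHC class I molecules display peptides of the cell's own proteins to CD8+ T cells and are ligands for receptors of natural killer cells. Each is made of a heavy chain, such as the products of H2-D1 and H2-K1, held together with the light chain beta-2 microglobulin, the product of B2m, and most class I molecules do not reach the cell surface in a stable form without it. Class I levels are known to be low in neurons and to rise under interferon in most cells. Ifitm2 and Ifitm3 encode small membrane proteins that hinder the entry of enveloped viruses by acting on endosomal and plasma membranes, and they are made in many cells without interferon. Bst2, also called tetherin, holds budding virus particles at the cell surface and is a classical interferon-stimulated gene.

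In the GENCODE vM21 annotation of GRCm38, counted from 1, B2m (ENSMUSG00000060802) lies on chromosome 2 from 122147686 to 122153083. H2-D1 (ENSMUSG00000073411) and H2-K1 (ENSMUSG00000061232) lie in the H-2 complex of chromosome 17, from 35262730 to 35267499 and from 33996017 to 34000347. Ifitm2 (ENSMUSG00000060591) and Ifitm3 (ENSMUSG00000025492) lie in the Ifitm cluster of chromosome 7, from 140954837 to 140955987 and from 141009586 to 141010770. Bst2 (ENSMUSG00000046718) lies on chromosome 8 from 71534255 to 71537456. B2m overlaps Patl2 on the opposite strand, for which kept cells of both libraries held 0 molecules, and Ifitm2 overlaps the predicted gene Gm45717 on the same strand, which neither file lists.

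The RefSeq promoter table of build GRCm38.p6 held all 6 genes. Each window runs from 250 bases before the start of transcription to 50 bases after it, read 5′ to 3′ on the strand of the gene, and the first of the listed start sites is shown. The sequences are shown because these genes share elements that interferon regulatory factors are known to read. Capitals mark matches, on either strand, to GAAA and GAAA with any 2 bases between them, the core of the interferon-stimulated response element (ISRE), or to the form GAANNGAAA, which is 1 base shorter.
B2m (plus strand, chr2:122147437-122147736): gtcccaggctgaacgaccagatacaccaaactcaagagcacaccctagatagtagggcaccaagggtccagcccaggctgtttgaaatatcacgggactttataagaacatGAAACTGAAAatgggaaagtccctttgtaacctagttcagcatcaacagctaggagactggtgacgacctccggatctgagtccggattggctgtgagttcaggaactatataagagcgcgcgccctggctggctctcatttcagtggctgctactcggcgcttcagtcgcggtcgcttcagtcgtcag
H2-D1 (plus strand, chr17:35262844-35263143): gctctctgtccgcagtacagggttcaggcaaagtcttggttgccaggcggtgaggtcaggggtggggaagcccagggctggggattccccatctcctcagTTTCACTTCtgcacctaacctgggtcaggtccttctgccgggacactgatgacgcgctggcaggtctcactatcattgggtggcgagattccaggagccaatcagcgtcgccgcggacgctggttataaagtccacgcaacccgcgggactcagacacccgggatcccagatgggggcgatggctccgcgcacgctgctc
H2-K1 (minus strand, chr17:34000298-34000597): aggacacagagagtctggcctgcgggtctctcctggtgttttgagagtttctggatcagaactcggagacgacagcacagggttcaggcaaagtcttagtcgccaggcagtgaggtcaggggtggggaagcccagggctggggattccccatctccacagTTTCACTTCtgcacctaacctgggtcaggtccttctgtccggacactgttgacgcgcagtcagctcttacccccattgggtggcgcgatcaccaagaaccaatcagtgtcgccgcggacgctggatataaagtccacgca
Ifitm2 (minus strand, chr7:140955912-140956211): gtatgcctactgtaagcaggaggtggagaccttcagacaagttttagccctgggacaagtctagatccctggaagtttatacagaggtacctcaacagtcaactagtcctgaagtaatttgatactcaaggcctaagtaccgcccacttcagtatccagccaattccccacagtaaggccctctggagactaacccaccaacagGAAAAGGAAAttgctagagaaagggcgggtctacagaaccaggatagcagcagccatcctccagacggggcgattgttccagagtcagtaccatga
Ifitm3 (minus strand, chr7:141010695-141010994): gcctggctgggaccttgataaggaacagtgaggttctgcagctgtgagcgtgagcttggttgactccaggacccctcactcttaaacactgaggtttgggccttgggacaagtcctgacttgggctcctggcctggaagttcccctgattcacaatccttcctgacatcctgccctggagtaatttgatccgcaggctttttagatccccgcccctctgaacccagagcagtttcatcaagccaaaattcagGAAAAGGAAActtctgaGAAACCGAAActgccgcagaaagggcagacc
Bst2 (minus strand, chr8:71537423-71537722): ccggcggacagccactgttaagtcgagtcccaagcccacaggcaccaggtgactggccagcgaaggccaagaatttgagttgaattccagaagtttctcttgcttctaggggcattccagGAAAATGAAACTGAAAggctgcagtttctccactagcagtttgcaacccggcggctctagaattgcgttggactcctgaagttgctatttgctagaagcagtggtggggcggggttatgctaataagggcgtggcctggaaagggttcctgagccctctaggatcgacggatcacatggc

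The ISRE core matched once in the B2m window, with its first base 139 bases before the start, and once in the Ifitm2 window, 46 bases before the start. The Ifitm3 window held 2 matches, beginning at bases 3 and 20 of the transcript, and the Bst2 window held 2 overlapping matches, beginning 130 and 124 bases before the start. Over all 27025 promoters of this table, 3.49% held the ISRE core on either strand. The windows of H2-D1 and H2-K1 held no ISRE core but each held 1 reverse match to GAANNGAAA, whose leftmost base lay 150 and 90 bases before the start, and 7.56% of all promoters held that form. GGG and CC with any 5 bases between them, a loose core of NF-κB sites, had at least 1 match in 5 of the 6 windows, all but that of Ifitm2, against 50.4% of all promoters. TGACG, the core of the CREB element that is part of the class I SXY module, matched in B2m, H2-D1 and H2-K1 and in none of the other windows, against 21.0% of all promoters. CCAAT matched in those 3 windows and in that of Ifitm2, against 37.9%. Over aligned bases, the windows of H2-D1 and H2-K1 were 91.2% identical and those of Ifitm2 and Ifitm3 81.0%, while the other pairs of these genes ran from 65.6% to 76.4%. A match is a description of letters, and binding was not measured here.

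The tail library had 1964 kept cells with a median of 1282.5 molecules, and the brain library had 7988 with a median of 696. Molecules summed to 2817103 in kept tail cells and 6424466 in kept brain cells, so a count of 0 allowed a level of up to 1.06 CPM (molecules scaled to a library total of 1000000) over the tail library and 0.467 CPM over the brain library. The 2 files shared 29 cell barcodes, of which 18 were kept in both. The genotype label was read against Sox1 itself, of which 9.78% (8.50 to 11.2) of the kept cells held a molecule in the tail library and 8.45% (7.85 to 9.08) in the brain library. A cell is called marked by a gene when it held at least 2 molecules of that gene and more than of any other of Igfbp5, Tmem212, Col1a1, Krt5, Stmn2 and Slc1a3. In the tail, 1186 cells were marked by Igfbp5, 166 by Col1a1, 81 by Krt5, 60 by Stmn2, 14 by Tmem212 and 11 by Slc1a3, and 446 were not marked. In the brain, 4832 cells were marked by Slc1a3, 490 by Stmn2, 219 by Igfbp5, 46 by Tmem212, 8 by Col1a1 and 0 by Krt5, and 2393 were not marked.

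The marks were checked against lists of 8 marker genes per class. Col1a1-marked tail cells held all 8 fibroblast markers, at a summed 82110 CPM, and Krt5-marked tail cells all 8 keratinocyte markers at 19132 CPM. Stmn2-marked cells held all 8 neuronal markers in the tail (12365 CPM) and, with 9790 CPM, 7 of 8 in the brain, where Nhlh2 was at 0. Slc1a3-marked brain cells held all 8 astroglial markers at 50500 CPM, and Tmem212-marked brain cells all 8 ependymal markers at 6593 CPM. Igfbp5-marked cells matched no class. In the tail their astroglial, fibroblast and ependymal lists lay at 1656, 1670 and 1030 CPM, and in the brain their neuronal and astroglial lists lay at 3758 and 3650 CPM, so the same mark did not pick the same kind of cell in both libraries.

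Over all kept cells, Ifitm2, Ifitm3 and H2-D1 were higher in the tail, and B2m and H2-K1 were higher in the brain. For Ifitm3, 1505 molecules were counted in tail cells (534 CPM, exact Poisson 95% interval 508 to 562) and 55 in brain cells (8.56 CPM, 6.45 to 11.1), which is 62.4-fold higher in the tail (conditional exact binomial 95% interval 47.7 to 83.2). Ifitm2 had 666 tail and 49 brain molecules, 31.0-fold higher in the tail (23.2 to 42.3). The class I genes did not move with them as a group. H2-D1 was 2.61-fold higher in the tail (280 against 245 molecules, 2.19 to 3.11), whereas H2-K1 lay at 0.516 times the brain level (150 against 663 molecules, 0.429 to 0.617) and B2m at 0.693 times (270 against 888, 0.603 to 0.795). The intervals of H2-D1 and H2-K1, both class I heavy chain genes, lay on opposite sides of 1. Bst2 had 2 tail and 12 brain molecules, a ratio of 0.380 (0.0413 to 1.71), too few to place it on either side. Because these levels chose the genes, they are given as they stand. With library sizes from TMM (trimmed mean of M-values) in place of totals, all tail over brain values shift by -0.39 on the log2 scale, and none of the 5 genes other than Bst2 changed direction.

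Of the 5 genes with at least 50 molecules over both libraries, 2 (Ifitm2 and Ifitm3) had their whole interval beyond 4-fold, both higher in the tail. Over all genes that met the same minimum, 6.35% (720 of 11347) lay beyond 4-fold in that direction. The median log2 ratio was 0.48 over all 6 genes, Bst2 among them, and 0.15 over all genes that met the minimum. Summed over the 6 genes, tail cells held 2873 molecules (1020 CPM) and brain cells 1912 (298 CPM), a ratio of 3.43 (3.23 to 3.63) that mixes the opposite directions just given. Molecules of the Ifitm genes made up most of the tail sum, and those of B2m and H2-K1 most of the brain sum.

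Ifitm3, whose product restricts virus entry from endosomes, was highest in the Igfbp5-marked cells of the tail, at 807 CPM (762 to 854). It lay at 405 CPM (318 to 508) in Krt5-marked and 250 CPM (203 to 305) in Col1a1-marked tail cells, and at 8.58 CPM, from 1 molecule, in Stmn2-marked tail cells. In the brain it was at 283 CPM (170 to 442) in Tmem212-marked cells, at 5.69 CPM (3.61 to 8.53) in Slc1a3-marked cells and at 3.99 CPM, from 1 molecule, in Igfbp5-marked cells. No molecule was found in the Stmn2-marked brain cells, where 0 allows up to 7.84 CPM. In this order, Igfbp5-marked tail cells lay 1.99-fold (1.58 to 2.56) above Krt5-marked ones. Tmem212-marked brain cells came between Krt5-marked and Col1a1-marked tail cells, and their ratio to each of these neighbours had an interval that held 1. The intervals of the Krt5-marked and Col1a1-marked tail levels themselves (318 to 508 and 203 to 305 CPM) did not overlap. The next step, from Col1a1-marked to Stmn2-marked tail cells, was 29.1-fold (5.11 to 1163), and the cells below it did not differ from their neighbours beyond counting error. The 46 Tmem212-marked cells were thus the one marked group of the brain with more than 3 molecules of Ifitm3 outside the Slc1a3-marked cells, and they held 19 of the library's 55 molecules. When tail cells were instead marked by the lists above, Ifitm3 lay at 882 CPM (790 to 981) with the astroglial list. It lay at 793 CPM (696 to 900) with the ependymal and 591 CPM (537 to 649) with the fibroblast list. Cells left to the Igfbp5 mark lay at 667 CPM (598 to 742), so the order within the tail depends on the marking.

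**Figure D1:**
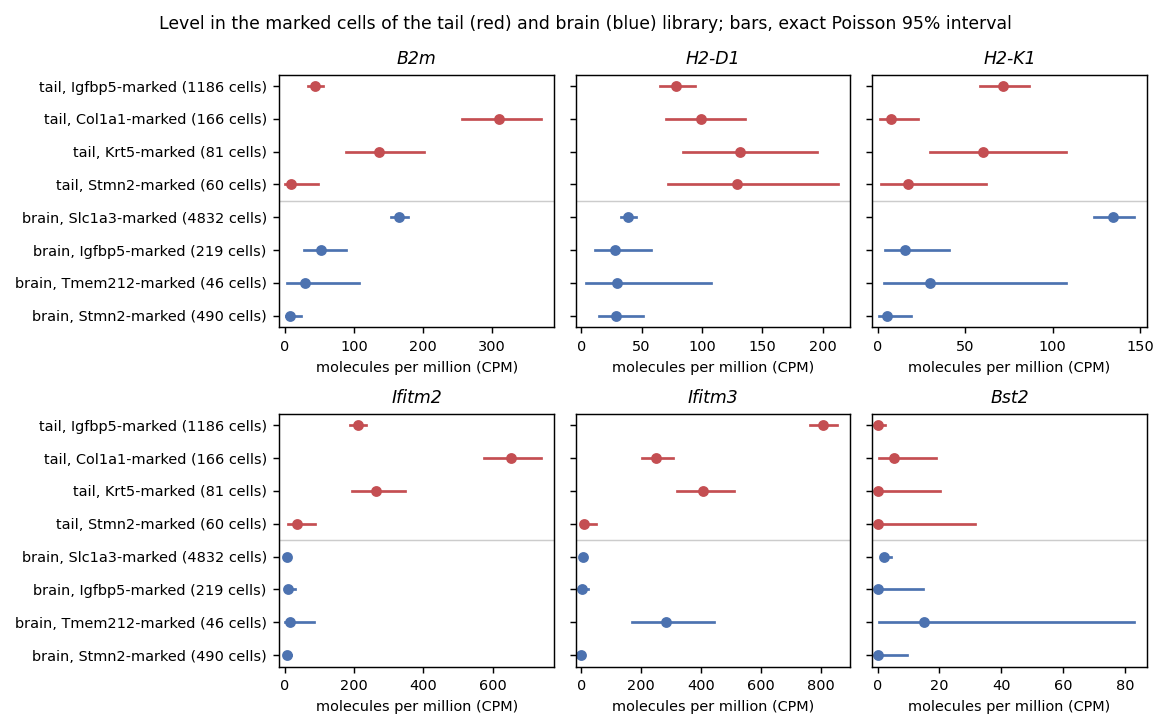
Level of each gene in CPM (horizontal axes, linear, different in each panel) in the marked cells of the tail library (red) and the brain library (blue), for groups of at least 20 cells. Points are levels from summed molecules and bars the exact Poisson 95% intervals. Ifitm3 stands at 807 CPM in Igfbp5-marked tail cells and at 283 CPM in Tmem212-marked brain cells, while H2-K1 is highest in Slc1a3-marked brain cells at 134 CPM and B2m in Col1a1-marked tail cells at 310 CPM.

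When every cell was thinned to 400 molecules, 24.6% (22.2 to 27.2, Clopper-Pearson 95% interval) of Igfbp5-marked tail cells held Ifitm3, and 46.6% did without thinning. The corresponding shares were 19.8% and 53.1% in Krt5-marked and 9.04% and 31.9% in Col1a1-marked tail cells. The thinned shares of these tail cells had the order of their levels, whereas without thinning the deeper Krt5-marked cells had a higher share than Igfbp5-marked cells. In Stmn2-marked tail cells, 0 of 60 thinned cells held a molecule, which allows a share of up to 5%, and 1.67% did without thinning. Their median of 1800.5 molecules was above the 1188 of Igfbp5-marked cells. As these cells were singled out for an Ifitm3 level near 0, their share does not measure free RNA in other cells. In the brain, 13.0% (4.94 to 26.3) of thinned Tmem212-marked cells and 0.264% (0.137 to 0.461) of thinned Slc1a3-marked cells held Ifitm3, without thinning 21.7% and 0.393%. Thinned Stmn2-marked brain cells held it in 0 of 466, which allows up to 0.644%. The share in Slc1a3-marked cells is therefore not shown to lie above that of Stmn2-marked cells. The median depths of these brain cells were 1419.5, 743 and 700 molecules.

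Within Igfbp5-marked tail cells Ifitm3 was spread over many cells. Of 1186 cells, 633 held no molecule, 255 held 1, 253 held 2 to 4 and 45 held 5 or more, with 13 as the highest. In Slc1a3-marked brain cells 4813 of 4832 held none and the highest held 3. Cells with Ifitm2 did not hold Ifitm3 more often than other Igfbp5-marked tail cells beyond counting error. Ifitm3 was in 32.3% (23.3 to 42.5) of thinned cells with Ifitm2 and in 23.9% (21.4 to 26.6) of those without it.

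**Figure D2:**
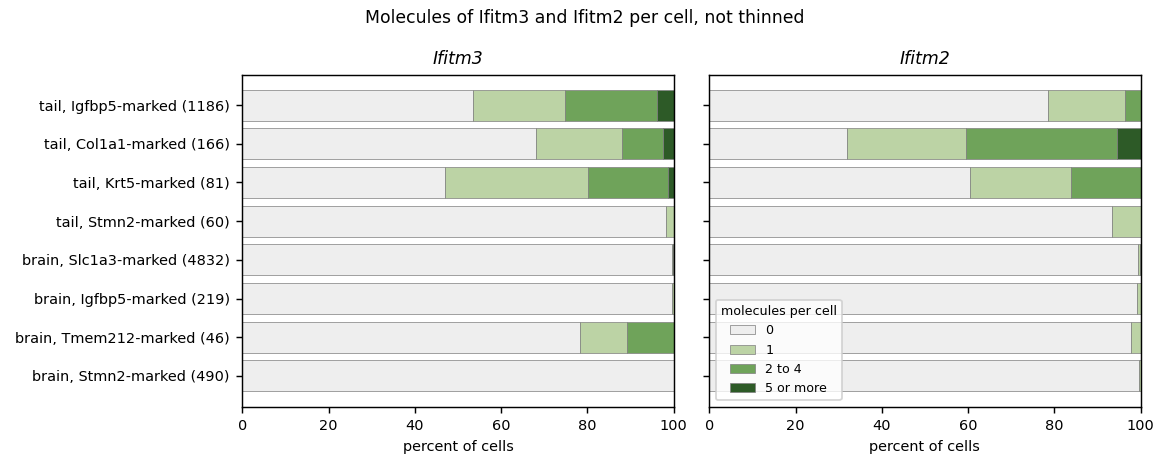
Share of cells (horizontal axis, percent) holding 0, 1, 2 to 4, or 5 or more molecules of Ifitm3 (left) and Ifitm2 (right), by library and marked cells, with no thinning and with the number of cells in brackets. Darker segments are cells with more molecules. Cells with 5 or more molecules of Ifitm3 made up 3.79% of Igfbp5-marked tail cells and 0 of the brain groups shown.

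Ifitm2, whose product acts on virus entry like that of Ifitm3, had another order within the tail. It was highest in Col1a1-marked cells, at 654 CPM (575 to 740), 2.49-fold (1.82 to 3.47) above the 263 CPM of Krt5-marked cells, which did not differ from the 211 CPM of Igfbp5-marked cells beyond counting error (ratio 1.24, 0.898 to 1.69). Stmn2-marked tail cells lay at 34.3 CPM, from 4 molecules. All brain groups of at least 20 cells lay between 5.22 and 14.9 CPM, and none differed from its neighbour in the order beyond counting error. Unlike Ifitm3, Ifitm2 had 1 molecule in the 46 Tmem212-marked brain cells. Of the 166 Col1a1-marked tail cells, 68.1% held Ifitm2 without thinning and 23.5% (17.3 to 30.7) did when thinned. In Stmn2-marked tail cells these shares were 6.67% and 0 of 60. Over the 7 groups of at least 50 marked cells, the levels of Ifitm2 and Ifitm3 had a Pearson r of 0.90, the highest among pairs of these genes. The 7 groups come from 2 libraries and share their depth, so this is a description.

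Among marked groups of at least 20 cells, B2m, the light chain of every classical class I molecule, was highest in Col1a1-marked tail cells, at 310 CPM (257 to 371), 1.87-fold (1.53 to 2.28) above Slc1a3-marked brain cells at 165 CPM (153 to 178). Krt5-marked tail cells lay at 137 CPM (88.5 to 202) and did not differ from the latter beyond counting error. Igfbp5-marked cells of the brain lay at 51.9 CPM (27.6 to 88.7) and those of the tail at 43.8 CPM (33.8 to 55.8). Stmn2-marked cells were lowest in both libraries, with 1 tail molecule (8.58 CPM) and 3 brain molecules (7.84 CPM). The share of cells with B2m was 6.43% (5.73 to 7.18) in thinned Slc1a3-marked brain cells and 12.4% without thinning, against 0.429% (0.0520 to 1.54) and 0.612% in Stmn2-marked brain cells of similar median depth. In the tail, 12.7% (8.004 to 18.7) of thinned Col1a1-marked cells and 1.36% (0.779 to 2.20) of thinned Igfbp5-marked cells held B2m, without thinning 43.4% and 5.06%.

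H2-K1, a classical class I heavy chain, was highest in Slc1a3-marked brain cells, at 134 CPM (123 to 146), 1.88-fold (1.53 to 2.34) above Igfbp5-marked tail cells at 71.5 CPM (58.5 to 86.4). Krt5-marked tail cells lay at 60.2 CPM (30.03 to 108). Stmn2-marked cells had 2 molecules in each library, at 17.2 CPM for tail and 5.22 CPM for brain cells. Col1a1-marked tail cells, which were highest for B2m, held 3 molecules of H2-K1 (7.81 CPM, 1.61 to 22.8), the lowest level among tail groups of at least 20 cells. This depends on the marking: with the fibroblast list in place of Col1a1, 401 tail cells held 37 molecules (50.5 CPM, 35.6 to 69.6). That lay above the 10.4 CPM (3.36 to 24.2) of tail cells with the neuronal list. Thinned Slc1a3-marked brain cells held H2-K1 in 5.13% (4.51 to 5.81), and 10.2% did without thinning. Of thinned Stmn2-marked brain cells 0 of 466 held it, which allows up to 0.644%.

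H2-D1, the other heavy chain gene, did not follow H2-K1 or B2m over the marked cells. Within the tail it lay at 131 CPM (84.1 to 195) in Krt5-marked, 129 CPM (72.04 to 212) in Stmn2-marked, 99.0 CPM (70.05 to 136) in Col1a1-marked and 78.9 CPM (65.2 to 94.5) in Igfbp5-marked cells, and no neighbours in this order differed beyond counting error. Within the brain it lay at 38.8 CPM (33.0 to 45.4) in Slc1a3-marked, 29.8 CPM in Tmem212-marked, 28.7 CPM (14.3 to 51.4) in Stmn2-marked and 27.9 CPM (11.2 to 57.5) in Igfbp5-marked cells, again without a step beyond counting error. The one step between neighbours in the order lay between the libraries, from Igfbp5-marked tail to Slc1a3-marked brain cells (2.03-fold, 1.59 to 2.60). Comparing neighbours does not exclude a difference between groups further apart, such as Krt5-marked and Igfbp5-marked tail cells, whose ratio was not computed. Thinned shares were alike within the brain, at 1.54% in Slc1a3-marked and 0.858% in Stmn2-marked cells, without thinning 3.15% and 2.24%. No marked group of at least 20 cells was without H2-D1, and its background from free RNA was not measured.

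Bst2, tetherin, was at the edge of detection. Its 2 tail molecules were in Col1a1-marked cells and 9 of its 12 brain molecules in Slc1a3-marked cells. The 1186 Igfbp5-marked tail cells held 0, which allows up to 2.02 CPM, so a level as low as the 2.23 CPM of Slc1a3-marked brain cells was close to what this depth can show. Stmn2-marked cells of neither library held a molecule.

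The most frequent marked cells of each library were then set side by side. Igfbp5-marked tail cells lay 142-fold (94.1 to 225) above Slc1a3-marked brain cells for Ifitm3 (1197 against 23 molecules) and 31.6-fold (21.3 to 48.7) for Ifitm2 (313 against 27). B2m lay at 0.265 times (0.202 to 0.342) and H2-K1 at 0.531 times (0.427 to 0.655) the brain level, and H2-D1 at 2.03 times. TMM moves these values by -0.58 on the log2 scale, which puts B2m at 0.177 times and leaves the directions of these 5 genes. In cells with a Y-linked gene and no Xist, the ratio of Ifitm2 was 15.5, that of B2m 0.441 and that of H2-D1 1.35. The brain shares of Ifitm3 and Ifitm2 were no higher in Slc1a3-marked than in Stmn2-marked cells beyond counting error. Free RNA was not measured, so the brain level under both folds is not shown to lie above background from it. Of the 5 genes with enough molecules 2 lay beyond 4-fold upwards, against 8.07% of all genes tested. The comparison within Igfbp5-marked cells, added after the data had been seen, gave 26.4-fold (7.26 to 219) for Ifitm2 and 202-fold (36.2 to 7996) for Ifitm3, from 2 and 1 brain molecules. Here H2-K1 was 4.48-fold (1.70 to 16.7) and H2-D1 2.82-fold (1.33 to 7.18) higher in the tail, and B2m had a ratio of 0.845 (0.461 to 1.67). In this comparison too 2 of 5 genes lay beyond 4-fold, against 3.23% of all genes. H2-K1 was thus lower in the tail over all kept cells and higher in the tail within Igfbp5-marked cells, which by the marker lists above were not the same kind of cell in both libraries.

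**Figure D3:**
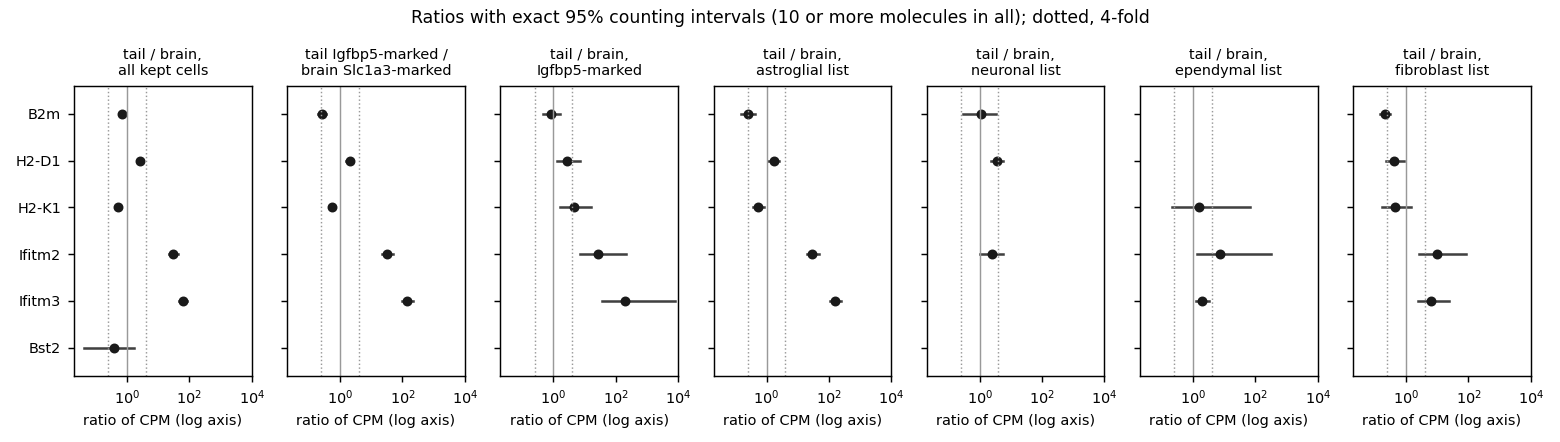
Ratio of the tail to the brain level (horizontal axes, logarithmic) for genes with at least 10 molecules in all, in all kept cells, in the most frequent marked cells, in Igfbp5-marked cells and in cells marked by astroglial, neuronal, ependymal or fibroblast lists. Points are ratios, bars conditional exact 95% intervals, the solid line 1 and the dotted lines 4-fold in either direction. Ifitm3 stands at 161 with the astroglial list, at 6.25 with the fibroblast list and at 1.94 with the ependymal list, and H2-D1 stands below 1 with the fibroblast list.

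Stmn2-marked cells carried the neuronal markers in both libraries, and they were compared next. Stmn2-marked cells held 23 tail and 18 brain molecules of the 6 genes, a ratio of CPM of 4.20 (2.17 to 8.25). Marking from 5 molecules of Stmn2 in place of 2 brought it to 1.26, without an interval, so it is then not shown to differ from 1. None of the genes reached 50 molecules here, so none could be placed beyond 4-fold, and 1.69% of all genes tested were beyond it. H2-D1 made up 15 of the 23 tail molecules and 11 of the 18 brain molecules and was 4.48-fold higher in the tail (1.92 to 10.8). Where cells were instead marked by the lists, which gave 328 cells with the neuronal list in the tail and 1544 in the brain, H2-D1 had 54 and 40 molecules, 112 and 31.6 CPM, and was 3.54-fold higher in the tail (2.31 to 5.47). B2m in these cells had 5 and 12 molecules, a ratio of 1.09 (0.302 to 3.33). H2-K1 had 5 tail molecules and no brain molecule, and Ifitm3 had 2 and 0. H2-D1 was thus the gene of the 6 with most of the molecules of these cells in both libraries.

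Tmem212-marked cells had 27 molecules of the 6 genes in each library (14 tail and 46 brain cells), a ratio of CPM of 2.12 (1.20 to 3.75), and Ifitm3 made up 21 and 19 of them. Ifitm3 was 2.34-fold higher in the tail (1.20 to 4.61). No gene reached 50 molecules, and 0.505% of all genes tested lay beyond 4-fold. With the ependymal list, which gave 180 tail and 37 brain cells, Ifitm3 had 240 and 21 molecules, 793 and 408 CPM, a ratio of 1.94 (1.24 to 3.20). The tail and brain levels of Ifitm3 were therefore closer in cells with the ependymal list than over all kept cells, whose interval began at 47.7. Ifitm2 in the same cells had 45 and 1 molecules, a ratio of 7.65 (1.30 to 309). With the astroglial list, 281 tail and 5929 brain cells, Ifitm3 was 161-fold (108 to 251) and Ifitm2 29.5-fold (19.2 to 46.5) higher in the tail, and B2m lay at 0.263 times (0.152 to 0.423). Only 11 tail cells were marked by Slc1a3 itself, so the tail cells that this list picked were mostly cells with other marks or none.

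The fibroblast list, on 401 tail and 50 brain cells, gave other values. Ifitm3 was 6.25-fold (2.42 to 23.1) and Ifitm2 9.68-fold (2.66 to 80.2) higher in the tail, but B2m lay at 0.208 times (0.150 to 0.296) and H2-D1 at 0.420 times (0.223 to 0.875), and the summed ratio was 0.894 (0.700 to 1.16). In these brain cells B2m was at 1087 CPM, above the level of any group marked by a single gene with at least 20 cells. Of the 50 brain cells, 31 also had at least 3 macrophage markers, whose list was at 21123 CPM with all 10 genes found, against 1.36 CPM in the 401 tail cells. Sparc made up 370 of the 517 fibroblast marker molecules of the brain cells, and 1 of the cells was marked by Col1a1. Without the cells with macrophage markers, 19 brain cells were left with 10 molecules of the 6 genes, the summed ratio was 3.03 (1.64 to 6.33), and B2m (2.39, 0.650 to 19.9) and H2-D1 (2.30, 0.401 to 91.9) had intervals that held 1.

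Comparisons inside 1 library share animals, age and preparation. In the tail, Igfbp5-marked cells lay 6.14-fold (4.08 to 9.71) above Stmn2-marked cells for the 6 genes summed, 1798 against 23 molecules, and 12.4-fold in cells with a Y-linked gene and no Xist. Ifitm3 was 94.0-fold (16.8 to 3717), Ifitm2 6.15-fold (2.38 to 22.7) and H2-K1 4.16-fold (1.12 to 34.8) higher, B2m had a ratio of 5.11 (0.885 to 205) and H2-D1 one of 0.613 (0.357 to 1.13). Of the 5 genes tested 1, Ifitm3, lay beyond 4-fold, against 2.11% of all genes. In the brain, Slc1a3-marked cells lay 7.51-fold (4.74 to 12.7) above Stmn2-marked cells, 1429 against 18 molecules, and 2.41-fold when marking needed 5 molecules. H2-K1 was 25.7-fold (7.09 to 213) and B2m 21.1-fold (7.19 to 103) higher, while H2-D1 had a ratio of 1.35 (0.735 to 2.76). Of the 3 genes with enough molecules 2, B2m and H2-K1, lay beyond 4-fold, against 7.15% of all genes. For H2-D1 the interval held 1 in both libraries, and it also did for B2m in the tail and for Ifitm2 in the brain (1.28, 0.321 to 11.1).

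The rest of the class I pathway was read from lists of related genes. Of 8 genes of peptide loading, 7 had at least 50 molecules, 3 were higher in the tail and 2 lower with the interval off 1, and none lay beyond 4-fold. Over all 11347 genes tested, 45% were higher and 22.3% lower by an interval off 1. Tap2, a subunit of the peptide transporter, had 6 tail and 89 brain molecules and lay at 0.154 times the brain level (0.0549 to 0.348), and 73 of the 89 were in Slc1a3-marked cells. The 3 higher genes, the chaperones Calr and Pdia3 and tapasin (Tapbp, named here after its value was seen), were 1.21-fold (1.15 to 1.27), 1.18-fold (1.102 to 1.27) and 1.24-fold (1.03 to 1.48) higher in the tail by totals, and all 3 turn lower in the tail when the TMM shift of -0.39 is added. Erap1, which trims peptides in the endoplasmic reticulum, lay at 0.557 times (0.366 to 0.825). Of 5 immunoproteasome and PA28 genes, Psme1 and Psme2, the PA28 activator subunits, were 1.93-fold (1.61 to 2.31) and 2.53-fold (1.66 to 3.88) higher in the tail, and Psmb10 did not differ beyond counting error (0.714, 0.477 to 1.05). Psmb8, an immunoproteasome catalytic subunit, had 1 tail and 10 brain molecules. Nlrc5, the class I transactivator, had 1 and 5.

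Among 9 regulators, Irf1, an interferon regulatory factor that acts on class I promoters, was 4.89-fold (3.45 to 7.01) higher in the tail, with 105 against 49 molecules. In the tail it was at 146 CPM (110 to 189) in Col1a1-marked and 15.5 CPM (9.83 to 23.3) in Igfbp5-marked cells, the order seen for B2m and Ifitm2 and not that of Ifitm3. Nfkb1, an NF-κB subunit, was 1.93-fold (1.52 to 2.45) higher, and Irf2 (0.540, 0.426 to 0.678) and Rfxank (0.475, 0.309 to 0.708) were lower in the tail. Of 12 interferon receptor and signalling genes, 10 had enough molecules, 1 was higher in the tail and 5 were lower, beside the 45% and 22.3% of all genes. Ifngr2, a chain of the interferon gamma receptor, was 1.52-fold (1.14 to 2.01) higher.

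The summed level of classical interferon-stimulated genes was lower in the tail, resting largely on Lgals3bp and Ifi27. Of 30 such genes 28 were found and 7 had at least 50 molecules, of which 2 were higher and 4 lower in the tail by an interval off 1, again beside 45% and 22.3% of all genes. Their summed level, 119 CPM for tail and 183 CPM for brain cells, lay at 0.652 times (0.576 to 0.737). Lgals3bp and Ifi27 held 309 and 182 of the 1175 brain molecules in this sum, and 39 and 17 of the 336 tail molecules. The sum was not computed without these genes, so a lower level of the list as a whole is not shown. Lgals3bp (0.288, 0.201 to 0.402), Ifi27 (0.213, 0.121 to 0.351) and Irgm1 (0.266, 0.103 to 0.583) were lower in the tail, and Trim25 was 2.62-fold (1.61 to 4.27) higher. Isg15, a ubiquitin-like modifier that interferon strongly raises, had 0 tail and 8 brain molecules, Ifit1 0 and 9, and Ifit3b 0 and 46. Of the other Ifitm genes only Ifitm1 had enough molecules, 326 against 1, 743-fold higher (133 to 29454), of which 271 were in Igfbp5-marked cells (183 CPM) and 49 in Col1a1-marked cells (128 CPM). Krt5-marked cells, in which Ifitm3 lay at 405 CPM, held 1 molecule of Ifitm1.

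**Figure D4:**
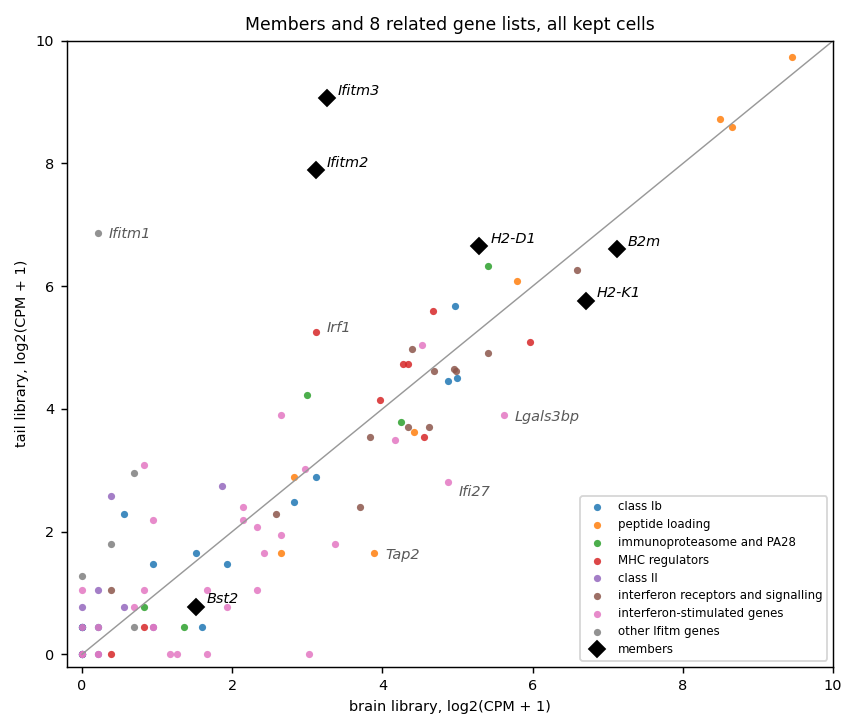
Level in the brain library (horizontal axis) against the tail library (vertical axis), both as log2(CPM + 1) over all kept cells, for the 6 genes (black diamonds) and the genes of 8 related lists (coloured points). The line marks equal levels. Ifitm1, Ifitm2 and Ifitm3 stand far above the line, B2m and H2-K1 below it, and most class I pathway and interferon genes near it or below it.

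Class Ib molecules and class II genes were also counted. Of 18 class Ib genes 14 were found and 5 had enough molecules. Cd1d1, which presents lipids to NKT cells, was 1.66-fold (1.32 to 2.07) higher in the tail, and Fcgrt, the neonatal Fc receptor heavy chain that also binds B2m, lay at 0.703 times (0.518 to 0.941). Mr1 (0.743, 0.544 to 1.002) and Hfe (0.760, 0.372 to 1.45) had intervals that held 1. Cd1d1 was at 133 CPM (99.2 to 175) in Stmn2-marked and 4.20 CPM (2.45 to 6.73) in Slc1a3-marked brain cells, the reverse of B2m. None of the 7 class II genes reached 50 molecules, and together they had 38 tail and 30 brain molecules.

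Markers of cells that are known to make much class I were counted beside these results. The 10 macrophage or microglia markers were all found, at 41.2 CPM over tail cells and 186 CPM over brain cells, and the 8 endothelial markers at 77.7 CPM and 3.74 CPM. In Igfbp5-marked tail cells 2 of 10 macrophage markers were found, at 1.35 CPM, and 8, among them C1qa, C1qb, C1qc, Csf1r and Cx3cr1, were at 0. Without the 48 macrophage-marked and 10 endothelial-marked cells, the summed ratio over all kept cells was 3.46. For the class I genes the ratio was then 0.649 for B2m, 0.483 for H2-K1 and 2.48 for H2-D1. With those cells kept, these ratios were 0.693, 0.516 and 2.61. Among marked tail groups of at least 20 cells, erythroid genes, like Ifitm3, were highest in Igfbp5-marked cells. All 5 were found there, at a summed 1076 CPM, against 2 of 5 at 18.2 CPM in Col1a1-marked, 2 of 5 at 16.4 CPM in Krt5-marked and 0 of 5 in Stmn2-marked cells. Ifitm3 lay at 250 CPM in Col1a1-marked, 405 CPM in Krt5-marked and 8.58 CPM in Stmn2-marked tail cells. Erythroid genes were higher still in unmarked tail cells (1519 CPM), where Ifitm3 lay at 192 CPM, and their part in these results was not tested. The sexes of the cells also differed: 272 tail cells held a Y-linked molecule and no Xist, against 1141 in the brain. Xist and no Y-linked molecule was held by 553 tail cells, against 1 in the brain. Among cells with a Y-linked molecule and no Xist, the tail to brain ratio of B2m was 1.29 in place of 0.693. Its point value thus turned, but no interval was computed, so this is not shown beyond counting error. Ifitm2 stayed 22.8-fold higher in the tail. The mice were bred with CD1 or mixed CD1 and C3H mice, the reference genome is that of C57BL/6, and H-2 alleles differ between strains. The part of this in the H2-D1 and H2-K1 counts was not tested.

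Reads of close relatives bear on these counts too. Of the 50-base words in the last 400 bases of their protein-coding transcripts, 25.4% of those of Ifitm2 and 12.3% of those of Ifitm3 also occur in another gene, 10.1% of those of H2-D1 and 10.2% of those of H2-K1, and 0% of those of B2m and Bst2. The pseudogenes that share most with Ifitm2 and Ifitm3, Gm8865 and Gm7676, are not listed in either file. Of the relatives that are counted, Ifitm1 shares 15 words with Ifitm3 and had 326 tail molecules against 1, and H2-D1 holds 102 of the 119 shared words of H2-K1.

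The genes whose log2 level over the 7 groups of at least 50 marked cells was most like the mean of the 6 genes were Ndufa3 (r = 0.98), Tcf7l1 (0.97), Ldha (0.96), Zfp395 (0.96) and Kremen1 (0.96), out of 7073 genes searched. With 7 points from 2 libraries, such values describe these groups and carry no p.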

How the data were processed

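RNA molecules were counted in Sox1-GFP+ cells captured with BD Rhapsody, 1 library from tail and 1 from brain. The deposited counts are error-corrected molecules per gene and cell. Per the file headers, the authors made them on GRCm38 and GENCODE vM19 in version 1.10.1 of the BD Rhapsody WTA pipeline, while the methods give a later one, and the submitters' notes also list UMI-tools 1.0.1, STAR 2.7.1a and featureCounts 1.6.4. The counting takes the 3′ ends of transcripts, so levels of different genes are not compared. The study's limits on cells (over 200 genes, below 4000 genes, less than 40% of molecules mitochondrial) kept 1964 of 2469 tail and 7988 of 12111 brain barcodes. Molecules were summed over cells and scaled to 1000000. Levels have exact Poisson, shares Clopper-Pearson and ratios conditional exact binomial 95% intervals (scipy 1.17.1, Python 3.11.15). A gene counted as beyond 4-fold with at least 50 molecules in all and its whole interval beyond 4-fold. A count of 0 was taken to allow 3. For shares, each cell was thinned to 400 molecules, which left out shallower cells. Patterns over groups used log2(CPM + 20) of genes with at least 200 molecules. Scrublet in scanpy 1.11.5, at an expected rate of 0.05, called 5 tail and 76 brain cells doublets, which were kept. TMM and median-ratio factors came from edgeR 4.0.16 (R 4.3.3). From the lists, up to 4 genes each were named by the interval bound nearer to 1, and others only with their counts. The scripts were tested on simulated counts. The 6 genes and all lists were chosen with earlier results of these data known. The comparison within Igfbp5-marked cells and the ratios with list-marked cells by gene were added after seeing the data.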

Additional observations from a re-analysis of the deposited data

How the results depend on the processing

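The summed ratio of the 6 genes in the comparisons by single marks stayed above 1 under the alternatives listed here, for which no intervals were computed. With the fibroblast list it was 0.894, or 3.03 without cells with macrophage markers. Over all kept cells (3.43) it was 2.62 with TMM, 2.66 with median-ratio factors, 3.14 as a mean over cells, 3.75 under 20% mitochondrial molecules and 3.75 in cells with a Y-linked gene and no Xist. For Igfbp5-marked tail over Slc1a3-marked brain cells (3.43) these were 2.29 with TMM, 2.34 with median ratios and 3.18 as a mean over cells, with 3.71 when marking needed 5 molecules and 3.11 when marking was by lists. Marking from 5 molecules took Stmn2-marked tail over brain from 4.20 to 1.26, which is not shown to differ from 1. It took Slc1a3-marked over Stmn2-marked brain cells from 7.51 to 2.41. In cells with a Y-linked gene and no Xist, Igfbp5-marked over Stmn2-marked tail cells went from 6.14 to 12.4. There B2m over all kept cells went from 0.693 to 1.29, the one reversal of a point value. The causes were not tested. The share of Igfbp5-marked tail cells with Ifitm3 was 39.6% when thinned to 800 molecules and 46.6% with no thinning, and that of Slc1a3-marked brain cells with B2m 12.4% in both. The count of genes beyond 4-fold was 3 with a 2-fold limit and 2 with 8-fold, where 13.2% and 3.49% of all genes passed upwards. With the mean over cells that count was not run. No paired analysis was possible because each group has 1 library. Depth limits Bst2 and every marked group under about 50 cells.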

Other observations

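Cells with at least 3 macrophage or microglia markers had higher levels of B2m and H2-D1 than the marked groups of at least 20 cells. The 43 such brain cells lay at 2224 CPM (1713 to 2840) for B2m, 452 CPM (241 to 773) for H2-D1 and 243 CPM (97.8 to 501) for H2-K1. They held 0 molecules of Ifitm2 and 1 of Ifitm3. The 5 such tail cells held 15 molecules of B2m, 16 of H2-D1 and 7 of H2-K1, with 5 of Ifitm2 and 4 of Ifitm3. The 10 tail cells with at least 3 endothelial markers held 22 molecules of B2m (962 CPM, 603 to 1457), 13 of H2-D1 and 26 of Ifitm3 (1137 CPM, 743 to 1666), and the brain had no such cell.

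Igfbp5-marked tail cells of both sexes carried Ifitm3. The 156 with a Y-linked molecule and no Xist lay at 818 CPM (705 to 945), and the 329 with Xist and no Y-linked molecule at 769 CPM (690 to 856). For H2-D1 these cells lay at 48.7 CPM (24.3 to 87.1) and 93.1 CPM (66.8 to 126).

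The 14 Tmem212-marked tail cells held 21 molecules of Ifitm3 in 11 cells, 3 each of B2m and Ifitm2, and 0 of H2-D1 and H2-K1. The unmarked cells held Ifitm3 at 192 CPM (159 to 230) in the tail and 7.18 CPM (3.71 to 12.5) in the brain.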
